A study of Mus musculus with 16 samples.

Results

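The comparison set small RNA from wild-type mouse embryonic stem cells moved out of 2iL medium 24 h earlier against small RNA from the same line held in 2iL, the 0 h point. Its members were the rows of the deposited miRNA table, each 1 arm (5p or 3p) of 1 hairpin, with a signal above 0 in at least 2 of the 4 libraries compared. There were 1268 such arms, from 753 hairpins, of 1696 arms in the table. Of these, 1009 were above 0 in all 4 libraries, 124 in 3 and 135 in 2. The group at 0 h held 2 libraries of wild-type (WT) v65 cells, a line of 129/C57BL/6 background, in 2iL, which is medium with inhibitors of MEK and GSK3 plus LIF. The group at 24 h held 2 libraries of the same line after transfer to N2B27 with bFGF and KSR. No library compared here carried a mutation or a transgene, and all came from 1 line, so the spread between lines was not measured. The design text calls the libraries biological replicates without saying what was repeated, so every p-value below measures only the spread between these libraries. The study followed the exit from naive pluripotency, and libraries from 12 h and 48 h of the same course are used here for the estimate of the spread and as levels without a test.

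A miRNA hairpin is cut from its transcript by Drosha with Dgcr8 and then by Dicer, and 1 strand of the resulting duplex, from the 5p or the 3p arm, is loaded into an Argonaute protein. The loaded strand finds its targets mainly through its seed, the bases 2 to 8 from the 5′ end, so arms with a common seed can repress the same transcripts. In embryonic stem cells the miR-290 cluster supplies a large share of the miRNA. Its AAGUGCU seed, shared with the miR-302 cluster, is known for speeding the passage from G1 to S phase and for allowing differentiation. The let-7 family, whose maturation Lin28 proteins block, is known as the opposing family that rises in somatic cells.

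Each library summed to 110000 on the deposited scale, whose values are called units here. The 4 libraries held 5441382 to 8393703 recovered reads, and 1 read was worth 0.0131 to 0.0202 units. At 0, a library therefore allows a signal of up to 0.0393 to 0.0607 units, which is 3 reads and covers counting error only. Replicates were correlated at 0.996 to 0.998 across members on the log2 scale, and the log2 differences had a standard error of 0.19 in the median. The labelled cell type was checked against its markers: all 14 arms of the miR-290 cluster were present, with 40.2% and 40.1% of the signal at 0 h and 35.3% and 37.9% at 24 h. Arms known from other cell types were also counted. The neural list (miR-9, miR-124, miR-219 and miR-137) summed to 327 and 342 units at 0 h and 394 and 430 at 24 h. The mesenchymal list (miR-143, miR-145, miR-199 and miR-214) summed to 319.6 and 309 units and then 229 and 221. The blood list (miR-142, miR-150, miR-155, miR-144, miR-223 and miR-451a) summed to 211 and 235 units and then 228 and 262, with miR-223-5p and miR-451a-5p at 0 in all 4 libraries. Muscle arms summed to 1.14 and 0.851 units and then 10.4 and 11.2, and liver and gut arms to 101 and 99.9 units and then 92.0 and 84.8. In a bulk library, fewer cells of a type and less of a miRNA per cell cannot be told apart.

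Of the 1268 arms, 211 were higher at 24 h (16.6%) and 167 were lower (13.2%), which is 29.8% in either direction. An arm was called where the limma test gave a Benjamini-Hochberg adjusted p under 0.05 over all members. Most changes were small: 40 of the higher and 40 of the lower arms differed at least 2-fold. The balance of the directions depended on the scaling, since 55.8% of all calls were higher arms here, 47.4% with TMM scaling and 45.8% with edgeR. In none of the called arms did the libraries of the groups overlap, while 402 arms lay wholly above and 359 wholly below their 0 h values. The share called rose with the level. It was 10.6% of the 625 arms with a mean below 1 unit over the 4 libraries, 37.1% of the 256 arms from 1 to 10 units, and 56.1% of the 148 arms of 100 units or more. Among the 643 arms with a mean of at least 1 unit, 181 were higher (28.1%) and 131 were lower (20.4%), with a median log2 difference of 0.07. Counts of list members below refer to these 643 arms and are to be read against those shares. Leaving out 0 h replicate 2 reduced the lower arms to 107, and fitting only the 4 libraries of the comparison reduced the calls to 134 higher and 99 lower.

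**Figure D1:**
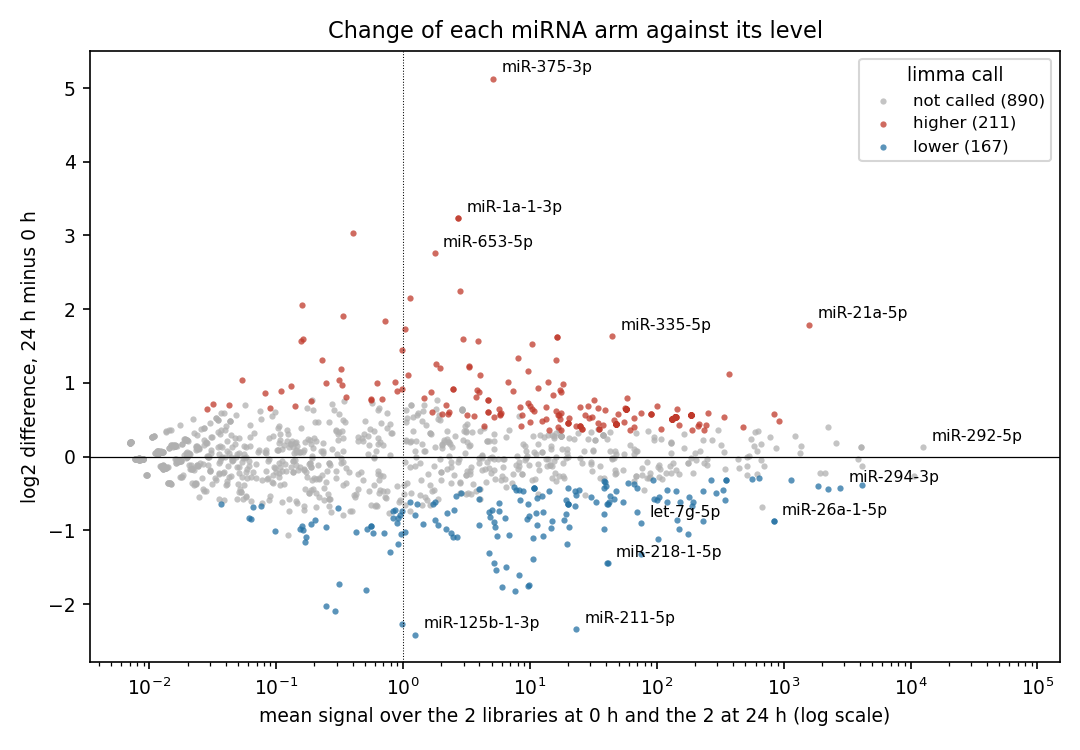
Each point is 1 of the 1268 arms. The horizontal axis is its mean signal over the 4 libraries on a log scale and the vertical axis its log2 difference, 24 h minus 0 h, with higher calls in red (211), lower calls in blue (167) and the 890 arms not called in grey. The dotted line marks a mean of 1 unit, and miR-375-3p at 5.13 and miR-125b-1-3p at −2.42 are the largest called changes to its right.

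Mature sequences were taken from RefSeq (GRCm38.p6), which gave one for 710 of the 1268 arms. The sequences of the strongest rises for which one was given are shown first, each 5′ to 3′ with the seed in capitals.
miR-21a-5p: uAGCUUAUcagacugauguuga
miR-335-5p: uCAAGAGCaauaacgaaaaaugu
miR-203-3p: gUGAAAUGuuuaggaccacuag
miR-653-5p: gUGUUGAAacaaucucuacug
miR-344-3p: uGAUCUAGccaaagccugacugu
miR-132-5p: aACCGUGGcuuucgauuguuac
miR-34b-5p: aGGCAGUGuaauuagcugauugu

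Next are 7 of the 10 largest falls, chosen because they are described below, and arms of the miR-125, miR-99, miR-26 and let-7 families.
miR-211-5p: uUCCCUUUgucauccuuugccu
miR-218-5p: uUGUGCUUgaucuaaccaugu
miR-125b-5p: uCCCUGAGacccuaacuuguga
miR-125a-5p: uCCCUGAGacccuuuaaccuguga
miR-99b-5p: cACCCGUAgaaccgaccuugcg
miR-10b-5p: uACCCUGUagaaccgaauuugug
miR-26a-5p: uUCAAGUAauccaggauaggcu
let-7g-5p: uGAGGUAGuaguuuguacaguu
let-7i-5p: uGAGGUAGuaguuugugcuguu
let-7e-5p: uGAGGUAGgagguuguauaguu
miR-210-3p: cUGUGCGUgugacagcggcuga
miR-700-3p: cACGCGGGaaccgaguccacc
miR-196a-1-3p: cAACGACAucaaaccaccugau

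The arms of the miR-290 and miR-302 clusters below show how one motif recurs in the dominant miRNAs of these cells. miR-294, miR-295, miR-291a, miR-302b and miR-302d share the seed AAGUGCU. miR-291b-3p ends its seed in another base, and miR-302c-3p carries the same letters shifted by 1 position.
miR-294-3p: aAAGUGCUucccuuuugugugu
miR-295-3p: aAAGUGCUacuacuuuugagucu
miR-291a-3p: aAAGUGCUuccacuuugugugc
miR-302b-3p: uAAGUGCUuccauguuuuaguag
miR-302d-3p: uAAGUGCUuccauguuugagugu
miR-291b-3p: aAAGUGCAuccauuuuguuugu
miR-302c-3p: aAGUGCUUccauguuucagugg

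miR-21a-5p was by far the most abundant of the 10 arms with the largest rise. Its hairpin lies on chr11:86584067-86584158 inside the Vmp1 gene, and the miRNA is known to be induced by growth factor and STAT3 signalling in many cells. It was 724 and 697 at 0 h and 2456 and 2462 at 24 h, a 3.46-fold rise (log2 difference 1.79, SE 0.11, adjusted p = 4.46e-07), and the 24 h libraries lay far above both 0 h libraries. The level at 12 h was higher still, at 3192 and 3319 units, and at 48 h it was 2448 and 2647. miR-335-5p comes from a hairpin on chr6:30741299-30741396 within the imprinted gene Mest. It was 21.5 and 21.7 at 0 h and 67.6 and 66.9 at 24 h (log2 difference 1.64, SE 0.095, adjusted p = 4.46e-07), and at 48 h it was back at 41.5 and 42.5. miR-344-1-3p, on chr7:61877770-61877864 in the non-coding gene A230057D06Rik, was 8.67 and 7.37 at 0 h and 24.9 and 25.01 at 24 h (log2 difference 1.63, SE 0.11, adjusted p = 2.02e-06) and reached 98.9 and 86.4 at 48 h.

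Several other large rises started from a signal near or below 1 unit. miR-375-3p, the islet and neuroendocrine miRNA, was 0.163 and 0.223 at 0 h and 10.2 and 10.02 at 24 h. This was the largest difference of all called arms above 1 unit (log2 difference 5.13, SE 0.19, adjusted p = 1.28e-08), and the 12 h libraries stood between, at 1.30 and 1.61. The muscle miRNA miR-1a-3p was 0.523 and 0.365 at 0 h and 4.86 and 5.09 at 24 h (log2 difference 3.24, SE 0.19, adjusted p = 4.46e-07), and its rows for mir-1a-1 and mir-1a-2 hold the same reads. Its usual partner miR-133a-3p was also higher, at a lower level: the row of mir-133a-1 was 0.0182 and 0.0404 at 0 h and 0.235 and 0.337 at 24 h (log2 difference 1.57, SE 0.26, adjusted p = 9.96e-04), and 1.65 and 1.29 at 48 h. The call of miR-133a-3p held in the 15 alternatives that gave it a value. miR-203-3p, known from epidermis, was 0.743 and 1.09 at 0 h and 4.93 and 4.41 at 24 h (log2 difference 2.25, SE 0.20, adjusted p = 1.17e-05). miR-653-5p, from a hairpin within the calcitonin receptor gene Calcr on chr6:3721301-3721385, was 0.398 and 0.365 at 0 h and 3.32 and 3.001 at 24 h (log2 difference 2.76, SE 0.18, adjusted p = 1.06e-06). The brain miRNA miR-219-2-3p was 0.524 and 0.222 at 0 h and 2.03 and 1.75 at 24 h, and miR-132-5p, from a hairpin known for its induction by neuronal activity, was 0.362 and 0.487 at 0 h and 1.82 and 1.46 at 24 h, with log2 differences of 2.15 and 1.73. In each of these arms both 24 h libraries were above both 0 h libraries, as in every arm called higher. Apart from miR-133a-3p, the calls of these arms held in all 16 alternative analyses. At 48 h miR-1a-3p (15.7 and 14.04), miR-203-3p (18.8 and 20.4) and miR-653-5p (6.08 and 6.52) were higher again, while miR-132-5p had its highest level at 12 h (2.58 and 2.73).

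**Figure D2:**
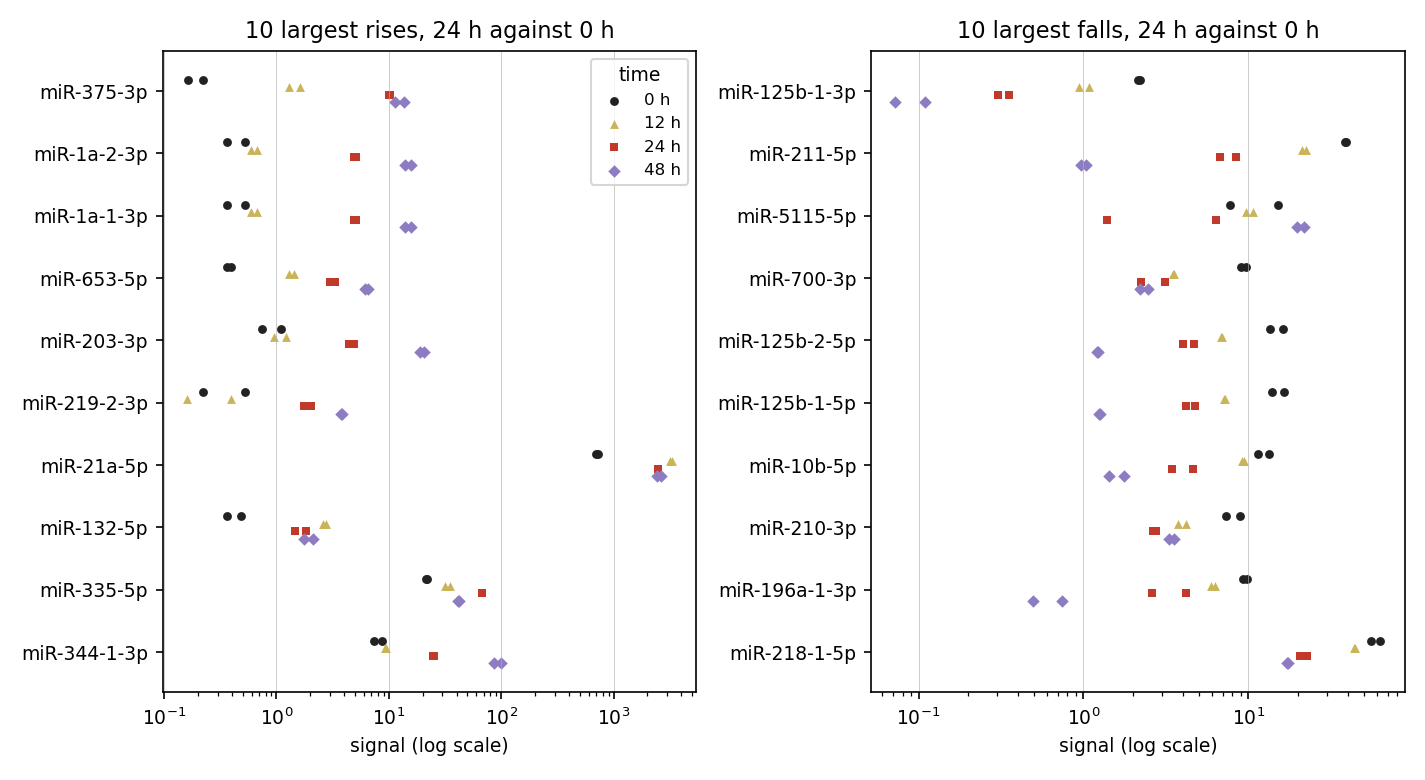
Signal in every library, on a log scale, for the 10 arms with the largest called rise (left) and the 10 with the largest called fall (right) among arms with a mean of at least 1 unit. Each time point has 2 points, 1 per library: black circles 0 h, yellow triangles 12 h, red squares 24 h, purple diamonds 48 h. For miR-5115-5p the 24 h libraries differ from each other (6.33 and 1.38), whereas miR-211-5p steps down from 38.5 and 38.9 at 0 h over 22.3 and 21.2 at 12 h to 6.78 and 8.41 at 24 h.

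Among the falls, miR-211-5p went from the middle of the range towards the trace level. Its hairpin lies on chr7:64205806-64205911 in Trpm1, a gene known from melanocytes and retina. It was 38.5 and 38.9 at 0 h and 6.78 and 8.41 at 24 h (log2 difference −2.34, SE 0.13, adjusted p = 4.46e-07), a 5.10-fold fall, and at 48 h it was 0.963 and 1.04. Its relative miR-204-5p has the same seed, UCCCUUU, and the summed signal of that seed was 39.2 and 39.8 units at 0 h and 7.12 and 8.75 at 24 h. miR-218-1-5p, from a hairpin within the axon guidance gene Slit2 on chr5:48223942-48224051, was 55.4 and 63.3 at 0 h and 22.8 and 20.6 at 24 h (log2 difference −1.45, SE 0.10, adjusted p = 2.28e-06). miR-10b-5p, from the Hoxd cluster on chr2:74726070-74726137, was 13.3 and 11.5 at 0 h and 3.45 and 4.62 at 24 h (log2 difference −1.60, SE 0.17, adjusted p = 5.17e-05). Another arm from a Hox cluster, miR-196a-1-3p, was 9.80 and 9.30 at 0 h and 4.18 and 2.62 at 24 h (−1.50). miR-210-3p, the miRNA known for its induction by hypoxia, was 7.29 and 8.85 at 0 h and 2.63 and 2.76 at 24 h (log2 difference −1.54, SE 0.15, adjusted p = 3.05e-05), and miR-700-3p, from a hairpin in Rcan3, was 9.01 and 9.66 at 0 h and 3.15 and 2.24 at 24 h (−1.78). The groups were separate in all of these arms, as in every called arm. The calls of these arms held in all 16 alternative analyses. miR-5115-5p was an exception. It was 7.69 and 15.2 at 0 h and 6.33 and 1.38 at 24 h, and its call ended without 0 h replicate 1, 0 h replicate 2 or 24 h replicate 2 (adjusted p = 0.059, 0.239 and 0.13).

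Arms of the miR-125, miR-99 and let-7 families were among the falls. All 6 arms of miR-125, miR-99 and miR-100 with a mean of at least 1 unit were lower, with a median log2 difference of −1.27. Of all 10 members of this list 7 were lower and 3 were not called. The 6 calls held without any 1 of the 4 libraries. The miR-125 arms are the vertebrate relatives of lin-4, the founding miRNA. miR-125b-1-5p was 13.9 and 16.5 at 0 h and 4.19 and 4.78 at 24 h (log2 difference −1.74, SE 0.14, adjusted p = 8.48e-06). Reads of miR-125b-1-5p and miR-125b-2-5p are largely the same, so they are not separate observations. miR-125a-5p was 43.3 and 54.3 at 0 h and 25.99 and 30.8 at 24 h (log2 difference −0.78, SE 0.13, adjusted p = 0.00121), and miR-99b-5p was 126 and 163 at 0 h and 98.7 and 89.4 at 24 h (log2 difference −0.61, SE 0.13, adjusted p = 0.00419). These last 2 hairpins and let-7e lie within 1 kb of each other on chromosome 17, in the gene Spaca6 (mir-99b chr17:17830188-17830257, let-7e chr17:17830352-17830444, mir-125a chr17:17830812-17830879), and let-7e-5p was 8.26 and 6.76 at 0 h and 3.71 and 3.29 at 24 h (log2 difference −1.07, SE 0.17, adjusted p = 8.54e-04). Of 12 let-7 arms, 8 were lower and none higher (median −0.60), and of all 23 members 11 were lower and none higher. The most abundant, let-7g-5p, was 109 and 88.3 at 0 h and 54.7 and 49.8 at 24 h (log2 difference −0.91, SE 0.11, adjusted p = 1.28e-04), and let-7i-5p was 25.98 and 22.2 at 0 h and 13.7 and 12.6 at 24 h (log2 difference −0.86, SE 0.11, adjusted p = 2.02e-04). The 4 arms not called were let-7d-5p at −0.47, miR-98-5p at −0.51, and let-7c-1-5p and let-7c-2-5p at 0.13 and 0.17. The let-7 family as a whole made up 0.286% and 0.242% of the signal at 0 h, 0.298% and 0.295% at 12 h, 0.155% and 0.161% at 24 h and 0.0693% and 0.0675% at 48 h. It was thus lower at 24 h than at 0 h and at 12 h, without overlap.

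The miR-26 family held the most abundant arm to fall by more than 0.8 on the log2 scale. miR-26a-5p is made from 2 hairpins that lie in the genes Ctdspl (chr9:119031796-119031885) and Ctdsp2 (chr10:126995530-126995613), which code for small phosphatases. Its row for mir-26a-1 was 1150.3 and 1013 at 0 h and 565 and 613 at 24 h (log2 difference −0.87, SE 0.10, adjusted p = 9.90e-05), and the row for mir-26a-2 holds nearly the same reads. With miR-26a-2-3p (−1.08), 3 of 4 arms of the family were lower, and miR-26b-5p was at −0.28 with overlapping groups. In the miR-148 and miR-152 family 4 of 5 arms were lower, and 2 without 24 h replicate 2. The largest of them, miR-148a-3p, was 2245 and 1976 at 0 h and 1758 and 1442 at 24 h (log2 difference −0.40, SE 0.13, adjusted p = 0.0294), a call that ended without 0 h replicate 1 (adjusted p = 0.159) or 24 h replicate 2 (adjusted p = 0.188). miR-152-3p was 4.85 and 5.64 at 0 h and 2.60 and 2.79 at 24 h (−0.93). In the miR-30 family 4 of 12 arms were lower and none higher, with miR-30b-5p at 39.4 and 40.2 at 0 h and 26.1 and 25.9 at 24 h (log2 difference −0.61, SE 0.099, adjusted p = 8.54e-04). In the miR-130 and miR-301 family 4 of 8 arms were lower, all of them from mir-301a and mir-301b, and miR-130a-5p alone was higher (0.57). None of the 3 measured arms of miR-221 and miR-222 was called by limma, at an unadjusted p under 0.05 or by edgeR or DESeq2.

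**Figure D3:**
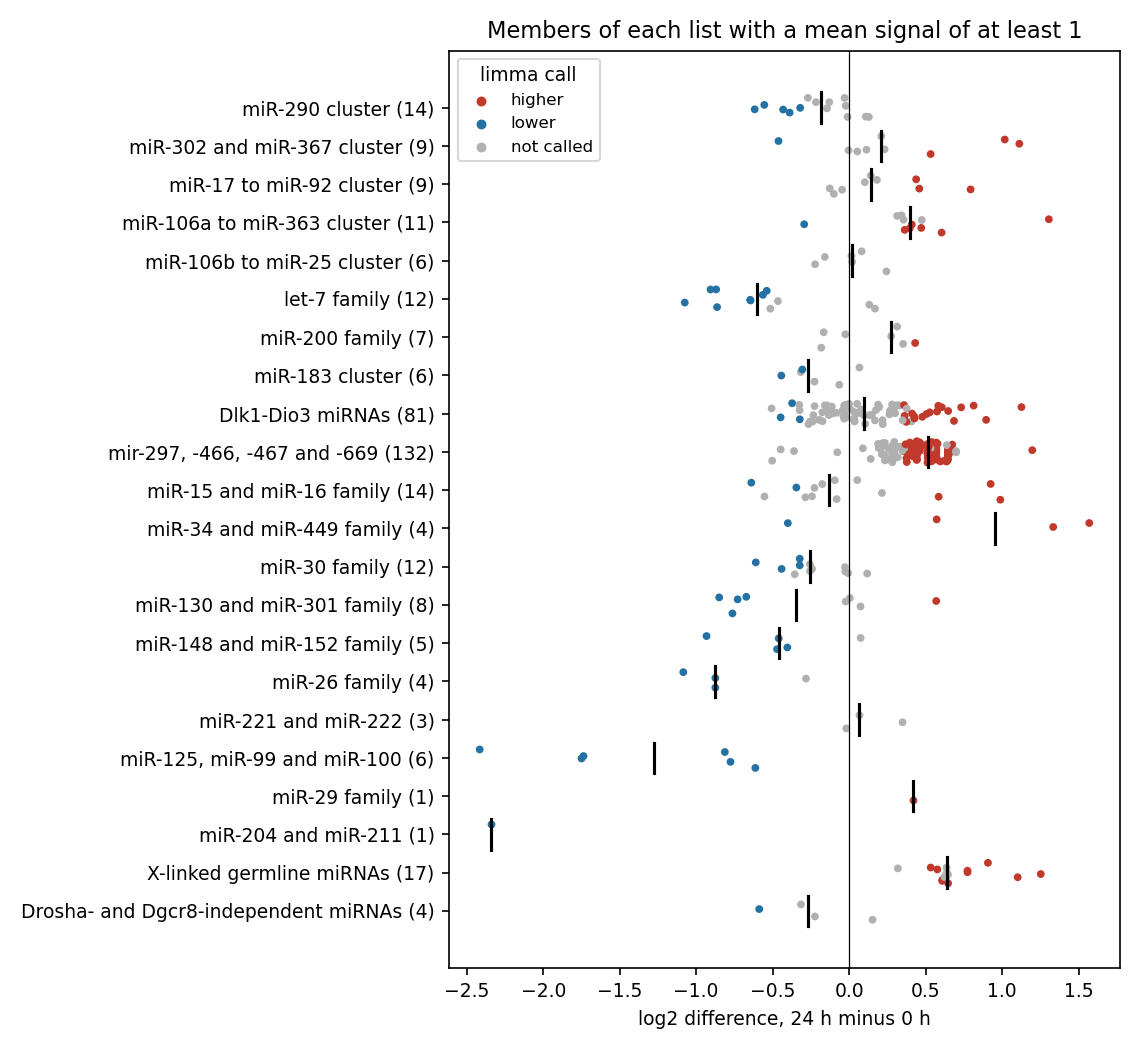
Log2 difference, 24 h minus 0 h, of every arm with a mean of at least 1 unit in each list, with the number of arms in brackets. Red points were called higher, blue lower, grey not called, and the black bar is the median of the list. The 6 arms of miR-125, miR-99 and miR-100 are all blue with a median of −1.27, and the list of mir-297, mir-466, mir-467 and mir-669 arms has 90 red points and no blue one.

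The dominant miR-290 cluster fell in part of its arms, by less than 0.7 on the log2 scale. It is made of 7 hairpins on chr7:3218626-3220841. Of its 14 arms, 5 were lower and none higher, against 20.4% lower among all arms of this level, and the median log2 difference was −0.18. Median-ratio scaling, or leaving out 0 h replicate 1, left 2 of these calls. Its 3p arms with the AAGUGCU seed were near each other: miR-295-3p was 4709 and 4676 at 0 h and 3432 and 3743 at 24 h (log2 difference −0.39, SE 0.13, adjusted p = 0.0398), miR-294-3p was 3080.3 and 3285 at 0 h and 2279 and 2441 at 24 h (log2 difference −0.43, SE 0.12, adjusted p = 0.0182) and miR-291a-3p was 1859 and 2323 at 0 h and 1886 and 1696 at 24 h (−0.22, not called). The call of miR-295-3p ended without any 1 of the 4 libraries, and that of miR-294-3p without 0 h replicate 2 or 24 h replicate 1. The minor pair miR-291b fell most within the cluster, with miR-291b-5p at 209 and 222 at 0 h and 142 and 151 at 24 h (log2 difference −0.55, SE 0.090, adjusted p = 8.54e-04) and miR-291b-3p at 67.8 and 62.2 at 0 h and 35.8 and 49.995 at 24 h (−0.62, a call that ended without 0 h replicate 1, 0 h replicate 2 or 24 h replicate 1). Leaving out 0 h replicate 2 or 24 h replicate 1 left 1 call in the cluster, that of miR-291b-5p, which held in all 16 alternatives. miR-291a-5p was 1271 and 1248 at 0 h and 952 and 1069.7 at 24 h (−0.32), a call that ended without 0 h replicate 1, 0 h replicate 2 or 24 h replicate 1 (adjusted p = 0.0991, 0.0809 and 0.165). The most abundant arm of all, miR-292-5p, was 12372 and 11738 at 0 h and 12647 and 13738 at 24 h, and the next, miR-293-3p, was 11593 and 11784 at 0 h and 9567 and 9827 at 24 h. Neither passed the test (adjusted p = 0.543 and 0.136), although the 24 h values of miR-293-3p were below both 0 h values. At 48 h the cluster's share of the signal was down to 28.5% and 27.4%.

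The miR-302 and miR-367 cluster, 5 hairpins on chr3:127545228-127545807, differed between the arms of its hairpins. The abundant 3p arms did not pass the test: miR-302b-3p was 1244 and 1409 at 0 h and 1253 and 1507 at 24 h (0.05) and miR-302d-3p was 533 and 493 at 0 h and 602 and 603 at 24 h (0.23). The 5p arms of the same hairpins were higher. miR-302d-5p was 4.43 and 4.31 at 0 h and 8.81 and 9.09 at 24 h (log2 difference 1.02, SE 0.12, adjusted p = 9.90e-05), miR-302b-5p was 2.22 and 2.74 at 0 h and 4.25 and 7.004 at 24 h (log2 difference 1.11, SE 0.22, adjusted p = 0.0027) and miR-302a-5p was 303 and 252 at 0 h and 405 and 395 at 24 h (log2 difference 0.53, SE 0.10, adjusted p = 0.0027). These 3 calls held in all 16 alternatives. miR-302c-3p was lower, at 14.6 and 18.1 at 0 h and 11.9 and 11.7 at 24 h (−0.46), a call that ended without 0 h replicate 2 (adjusted p = 0.104), 24 h replicate 1 or 24 h replicate 2. The cluster as a whole held 2.05% and 2.15% of the signal at 0 h, 1.61% and 1.64% at 12 h, 2.25% and 2.46% at 24 h and 8.82% and 7.92% at 48 h. At 24 h its share was therefore just above that at 0 h, and the larger share was that at 48 h.

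Summed by seed, the signal of AAGUGCU was 11427 and 12185 units at 0 h and 9452 and 9989.8 at 24 h, over the 5 arms with this seed that had a sequence. The log2 difference of −0.28 was not called (SE 0.11, limma adjusted p = 0.054 over 553 seeds), while the groups did not overlap. Of the 553 seeds, 79 were higher (14.3%) and 105 lower (19%). The seed of miR-293-3p, GUGCCGC, was called lower at −0.27 (adjusted p = 0.0464, and up to 0.203 in the alternatives). This seed holds miR-293-3p alone, so the call rests on the values that did not pass in the fit of arms. The seed AAAGUGC of miR-17, miR-20, miR-93 and miR-106, offset by 1 base from AAGUGCU, was 3107 and 3720.2 units at 0 h and 3567 and 3774 at 24 h (0.11, adjusted p = 0.523). The seed with the largest rise was that of miR-21a-5p. GAUCUAG of the miR-344 arms (1.63) and ACUAGAU of miR-28a-3p (1.53) followed miR-335-5p. Among the falls, UGUGCUU of both miR-218 rows was at −1.44, UAAGACU of miR-499-5p at −1.32 and ACCCUGU of miR-10a-5p and miR-10b-5p at −1.20. miR-499-5p itself went from 109 and 105 units at 0 h to 36.9 and 49.6 at 24 h.

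Among the miR-17 relatives, the cluster on the X chromosome (miR-106a to miR-363, chrX:52741693-52742567) had 6 higher arms and 1 lower arm of 11, with a median of 0.40. Its homologue on chromosome 14 (miR-17 to miR-92, chr14:115043671-115044506) had 3 higher arms of 9, and the cluster on chromosome 5 (miR-106b to miR-25, chr5:138165321-138165818) had none called of 6. The count of 0 is that of limma with all libraries: edgeR, TMM scaling and the fit without 24 h replicate 2 each called 1 of the 6 lower, and DESeq2 called none. An unadjusted p under 0.05 was found for miR-106b-5p (−0.22) and miR-25-5p (0.24). On the X chromosome 2 to 7 arms were higher when 1 library was left out (3 without 0 h replicate 1 and 2 without 24 h replicate 2). On chromosome 14, 1 was higher without 0 h replicate 1 or 24 h replicate 1. miR-92a-2-5p was 8.41 and 10.2 at 0 h and 22.8 and 23.3 at 24 h (log2 difference 1.31, SE 0.12, adjusted p = 1.36e-05) and miR-363-5p was 47.6 and 45.04 at 0 h and 63.2 and 65.3 at 24 h (log2 difference 0.47, SE 0.088, adjusted p = 0.00198). On chromosome 14, miR-19a-3p was 38.4 and 46.9 at 0 h and 74.2 and 73.1 at 24 h (log2 difference 0.79, SE 0.11, adjusted p = 2.50e-04), while its neighbours miR-17-5p (602 and 759 at 0 h and 662 and 648 at 24 h), miR-20a-5p and miR-18a-5p overlapped between the groups. miR-19b-3p has the same mature sequence on both chromosomes. Its row for mir-19b-1 was 162 and 208 at 0 h and 250.2 and 248 at 24 h (0.44), a call that ended without 0 h replicate 1, 24 h replicate 1 or 24 h replicate 2 (adjusted p = 0.112, 0.0759 and 0.0702).

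Arms named mir-297, mir-466, mir-467 and mir-669 made up the largest block of rises. Most hairpins of these names are known from a rodent-specific repeat in an intron of the imprinted gene Sfmbt2, but a position was given for only 1 of the 81 hairpins. That hairpin lies outside Sfmbt2, on chromosome 13 (chr13:17747473-17747593), so the origin of the others was not checked. Of 132 such arms, 90 were higher and none lower, with a median log2 difference of 0.51, against −0.08 for the other 511 arms of this level, of which 91 were higher (17.8%) and 131 lower (25.6%). Many of these rows hold the same reads: the 132 arms have 85 distinct sets of values. Tested once per set, 46 were higher. Only rows with equal values in all 8 libraries were merged, so rows that differ by about 1 read stayed apart. For example, miR-466b-1-3p and miR-466b-4-3p were equal in both 0 h libraries and 68.88 and 68.89 in 24 h replicate 1. The 46 calls and the counts by arm and name below therefore still hold some reads several times. Leaving out 0 h replicate 1 reduced the 90 calls to 56, and fitting only the 4 libraries reduced them to 51. TMM scaling gave 80 higher and 2 lower, and edgeR 83 and 2. The rises were spread over both arms (45 of 69 5p arms, 45 of 63 3p arms) and over the 4 names (5 of 10 mir-297, 25 of 49 mir-466, 25 of 28 mir-467 and 35 of 45 mir-669 arms). The called log2 differences ran from 0.35 to 1.20. miR-467c-5p was 55.1 and 65.6 at 0 h and 88.2 and 93.7 at 24 h (log2 difference 0.60, SE 0.10, adjusted p = 0.00144). The row miR-466b-1-3p was 40.8 and 49.03 at 0 h and 68.9 and 71.1 at 24 h (log2 difference 0.65, SE 0.10, adjusted p = 8.54e-04) and miR-669e-3p was 20.2 and 18.4 at 0 h and 30.1 and 31.4 at 24 h (log2 difference 0.67, SE 0.11, adjusted p = 8.54e-04). Together the block held 6.02% and 6.30% of the signal at 0 h, 5.46% and 5.57% at 12 h, 9.04% and 8.55% at 24 h and 15.0% and 14.7% at 48 h. These shares sum all 162 rows of these names. Reads that stand in several rows are counted in each, so the shares are not fractions of distinct reads.

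The imprinted Dlk1-Dio3 region on chromosome 12 (chr12:109563692-109743795), the source of a large maternally expressed miRNA set, was mixed. Of 81 arms, 19 were higher and 3 lower, to be read against 28.1% and 20.4% among all arms of this level. The balance depended on the scaling: TMM gave 10 higher and 7 lower, and edgeR 12 and 8. The median was 0.10. miR-494-3p stood out, at 253 and 217 at 0 h and 509.6 and 513 at 24 h (log2 difference 1.13, SE 0.099, adjusted p = 1.19e-05). miR-376b-3p was 112 and 111 at 0 h and 169.8 and 180.2 at 24 h (log2 difference 0.65, SE 0.094, adjusted p = 4.83e-04) and miR-299a-3p was 82.1 and 73.01 at 0 h and 123 and 126 at 24 h (log2 difference 0.69, SE 0.092, adjusted p = 2.48e-04). miR-127-3p, the most abundant arm of the region, was 1958 and 1827 at 0 h and 3020.4 and 2083 at 24 h (0.41, adjusted p = 0.0777, not called). In the fit of seeds its seed CGGAUCC, which holds this arm alone and the same values, was called higher (adjusted p = 0.0201, and up to 0.388 in the alternatives). Its 24 h replicates differed from each other by more than its 0 h replicates, as did those of miR-434-5p (643 and 682 at 0 h and 1257 and 773 at 24 h) and miR-411-5p (546 and 699 at 0 h and 839 and 575 at 24 h). The region held 11.4% and 11.2% of the signal at 0 h and 14.7% and 12.6% at 24 h. Without 24 h replicate 1, the higher of these, 13 arms were called higher and 3 lower. Without 0 h replicate 2 the counts were 13 and 1. The lower arms were miR-433-3p (−0.32), miR-431-5p (−0.37) and miR-667-3p (−0.45), and each of these calls ended without at least 1 of the libraries (miR-433-3p without 0 h replicate 1, miR-431-5p without 0 h replicate 2 or 24 h replicate 2, and miR-667-3p without 0 h replicate 2, 24 h replicate 1 or 24 h replicate 2).

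**Figure D4:**
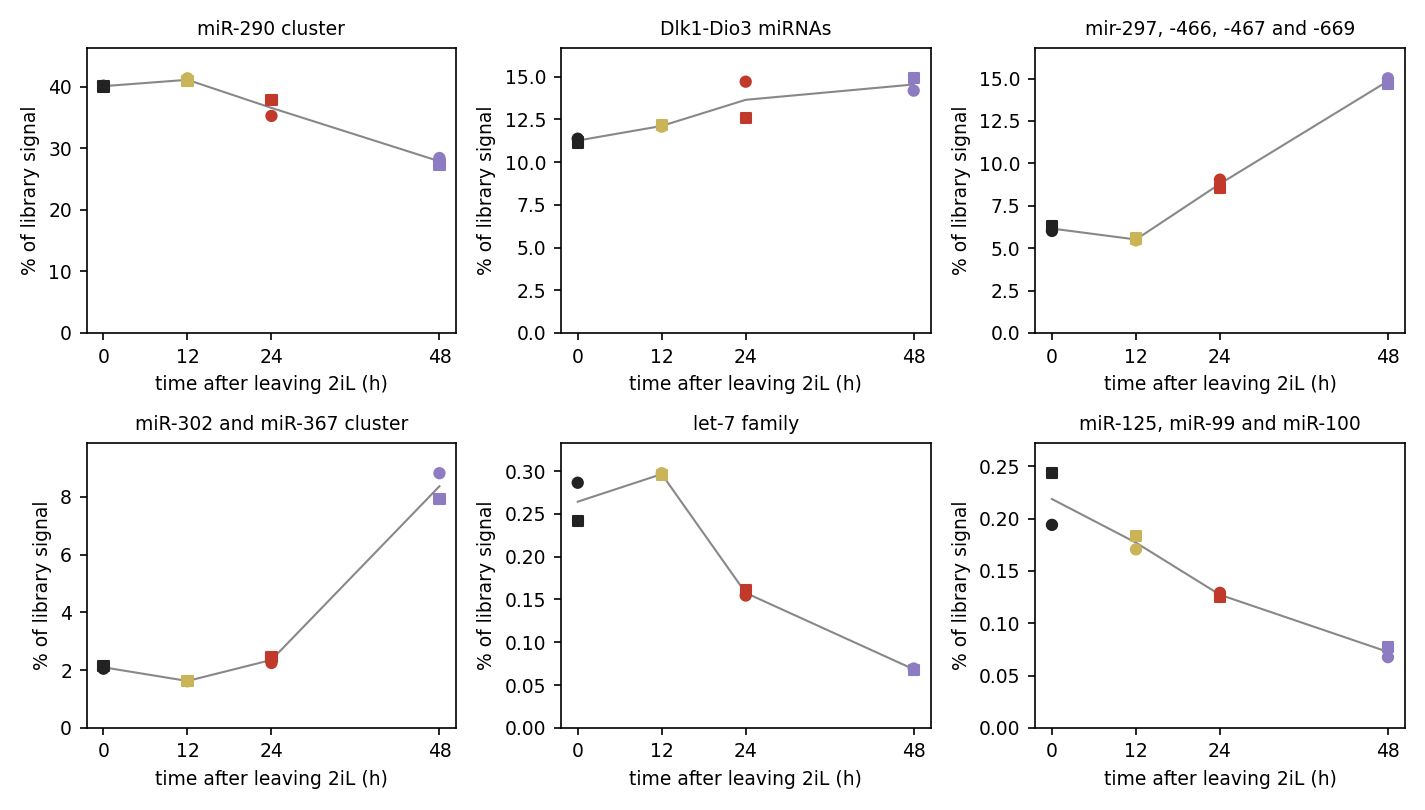
Share of the library signal, in %, held by 6 lists at 0, 12, 24 and 48 h. Circles are replicate 1, squares replicate 2, and the line joins the means. Reads that stand in several rows are counted in each row. From 0 h to 24 h the miR-290 cluster went from 40.2% and 40.1% to 35.3% and 37.9% and the let-7 family from 0.286% and 0.242% to 0.155% and 0.161%, while the mir-297, mir-466, mir-467 and mir-669 arms went from 6.02% and 6.30% to 9.04% and 8.55%.

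Smaller groups also changed. In the miR-34 and miR-449 family, known as targets of p53, the hairpins mir-34b (chr9:51103562-51103645) and mir-34c (chr9:51103034-51103110) lie next to each other on chromosome 9. miR-34b-5p was 2.21 and 1.64 at 0 h and 5.64 and 6.06 at 24 h (log2 difference 1.57, SE 0.16, adjusted p = 3.05e-05) and miR-34c-5p was 4.39 and 4.65 at 0 h and 11.7 and 11.4 at 24 h (log2 difference 1.33, SE 0.13, adjusted p = 2.90e-05). miR-34a-5p, from another locus, was lower at 48.2 and 41.8 at 0 h and 33.1 and 34.8 at 24 h (−0.40), a call that ended without 0 h replicate 1 or 24 h replicate 1 (adjusted p = 0.0706 and 0.0641). In the miR-15 and miR-16 family, 3 of 14 arms were higher and 2 lower (3 lower without 0 h replicate 1 and 1 without 0 h replicate 2). The higher ones came from the neighbouring hairpins mir-195a and mir-497 on chromosome 11 (chr11:70235042-70235135 and chr11:70234717-70234800): miR-195a-5p was 11.8 and 12.8 at 0 h and 23.6 and 25.4 at 24 h (log2 difference 0.99, SE 0.11, adjusted p = 5.96e-05) and miR-497-5p was 11.8 and 16.2 at 0 h and 20.2 and 21.5 at 24 h (0.59, with the call lost without 0 h replicate 1 or 24 h replicate 2). miR-15a-5p was lower at 10.8 and 12.6 at 0 h and 6.68 and 8.31 at 24 h (log2 difference −0.64, SE 0.14, adjusted p = 0.00467). Of 17 arms of the X-linked germline cluster (chrX:66776757-68010179), known from testis, 10 were higher and none lower (median 0.64). The 17 rows hold 12 distinct sets of values, and 9 to 14 of them were called when 1 library was left out. miR-465a-5p was 0.887 and 1.17 at 0 h and 3.08 and 2.15 at 24 h (log2 difference 1.25, SE 0.23, adjusted p = 0.00189) and miR-741-3p was 2.57 and 2.73 at 0 h and 5.39 and 4.75 at 24 h (log2 difference 0.91, SE 0.16, adjusted p = 0.0017). At 48 h these arms were back at 0.784 and 0.891 and at 2.22 and 2.76.

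The other lists differed in the share of arms called. In the miR-183 cluster, known from sensory organs, 2 of 6 arms were lower (1 without 0 h replicate 1, 0 h replicate 2 or 24 h replicate 2), with miR-183-5p at 2669 and 2467 at 0 h and 1916 and 1859 at 24 h (log2 difference −0.44, SE 0.11, adjusted p = 0.00859). In the miR-200 family, known from epithelia, 1 of 7 arms was higher, miR-200b-3p at 121 and 134 at 0 h and 176 and 168 at 24 h (log2 difference 0.43, SE 0.094, adjusted p = 0.00476), and 2 were called without 0 h replicate 2. miR-29a-3p, of a family known to target de novo DNA methyltransferases, was 7.17 and 7.30 at 0 h and 8.97 and 10.5 at 24 h (0.42), a call that ended without 0 h replicate 1, 0 h replicate 2 or 24 h replicate 2 (adjusted p = 0.0623, 0.0528 and 0.105). Of 4 arms that do not need Dgcr8 or Drosha, 1 was lower, miR-877-5p (−0.59), with the call lost without 0 h replicate 2 or 24 h replicate 2. Among arms known from other cell types, 8 of 15 neural arms were higher and 6 lower. These rows hold 12 distinct sets of values, of which 6 were higher and 5 lower when tested once. Sets that differ by about 1 read were kept apart. The miR-9-5p row of mir-9-3 was 70.001 in 0 h replicate 1, against 70.019 for mir-9-1 and mir-9-2. These counts therefore still hold the same reads more than once. Of the 15 arms 3 were lower without 0 h replicate 1, 24 h replicate 1 or 24 h replicate 2. Of the mesenchymal arms 1 of 9 was lower, and of the blood arms 1 of 5, a call that ended without 0 h replicate 2 or 24 h replicate 2. Both muscle arms of at least 1 unit were higher, but these are the rows of mir-1a-1 and mir-1a-2, which hold the same reads of miR-1a-3p. Of all 9 muscle members 6 were higher, among them the nearly equal miR-133a-3p rows of mir-133a-1 and mir-133a-2. Of 5 liver and gut arms 2 were higher and 3 lower. miR-9-5p was 70.02 and 73.5 at 0 h and 102 and 112 at 24 h (log2 difference 0.58, SE 0.10, adjusted p = 0.00127), and miR-124-3p was 22.7 and 26.4 at 0 h and 14.8 and 16.6 at 24 h (log2 difference −0.64, SE 0.12, adjusted p = 0.0017). The mesenchymal miR-143-3p was 234 and 229 at 0 h and 157 and 144 at 24 h (log2 difference −0.62, SE 0.089, adjusted p = 4.26e-04), and the liver miRNA miR-122-5p was 1.90 and 1.996 at 0 h and 4.19 and 5.24 at 24 h (log2 difference 1.23, SE 0.16, adjusted p = 2.01e-04), with 15.3 and 15.6 at 12 h. The part of other cell types in these changes was not tested.

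The ratio of the 5p to the 3p arm was compared within 220 hairpins whose arms both had a mean of at least 1 unit. It changed in 14 of them (6.36%), 8 towards 5p and 6 towards 3p. The largest shift towards 5p was in mir-302b, from log2 ratios of −9.07 and −8.95 at 0 h to −8.17 and −7.73 at 24 h (log2 difference 1.06, SE 0.17, limma adjusted p = 0.00116). It was followed by mir-335, from −3.20 and −3.24 at 0 h to −2.15 and −2.20 at 24 h (log2 difference 1.05, SE 0.15, limma adjusted p = 4.56e-04), and mir-92a-2, from −5.53 and −5.41 at 0 h to −4.48 and −4.65 at 24 h (log2 difference 0.91, SE 0.16, limma adjusted p = 0.00217). These 3 calls held in every alternative, with an adjusted p of at most 0.0408. The 3p arms of mir-92a-1 and mir-92a-2 have the same mature sequence, and how their reads were assigned is not stated. The ratio of mir-92a-2 may therefore mix reads of 2 hairpins on its 3p side, which was not tested. mir-302d (0.79) and mir-363 (0.77) shifted in the same direction, with an adjusted p of up to 0.0505 in the alternatives. Shifts towards 3p were found in mir-466n (−0.96), mir-150 (−0.91) and mir-376b (−0.81), with an adjusted p of 0.0357, 0.0158 and 0.00464. Each of these 3 calls was lost in at least 1 alternative, with an adjusted p of up to 0.257, 0.168 and 0.0803. Of the 14 hairpins, 12 shifted towards the arm that had been the minor one at 0 h, while 52.3% of all 220 moved that way. The minor arm was defined from the 0 h ratios that also enter the difference, and the 14 were selected on that difference. These counts are therefore a description, not a test. At 48 h mir-302b had ratios of −8.62 and −8.59 and mir-302d of −6.89 and −6.82, the latter at its 0 h values of −6.88 and −6.80. The count of 14 was not stable: it was 8 without 0 h replicate 1, 7 without 0 h replicate 2, 25 without 24 h replicate 2 and 3 with only the 4 libraries.

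**Figure D5:**
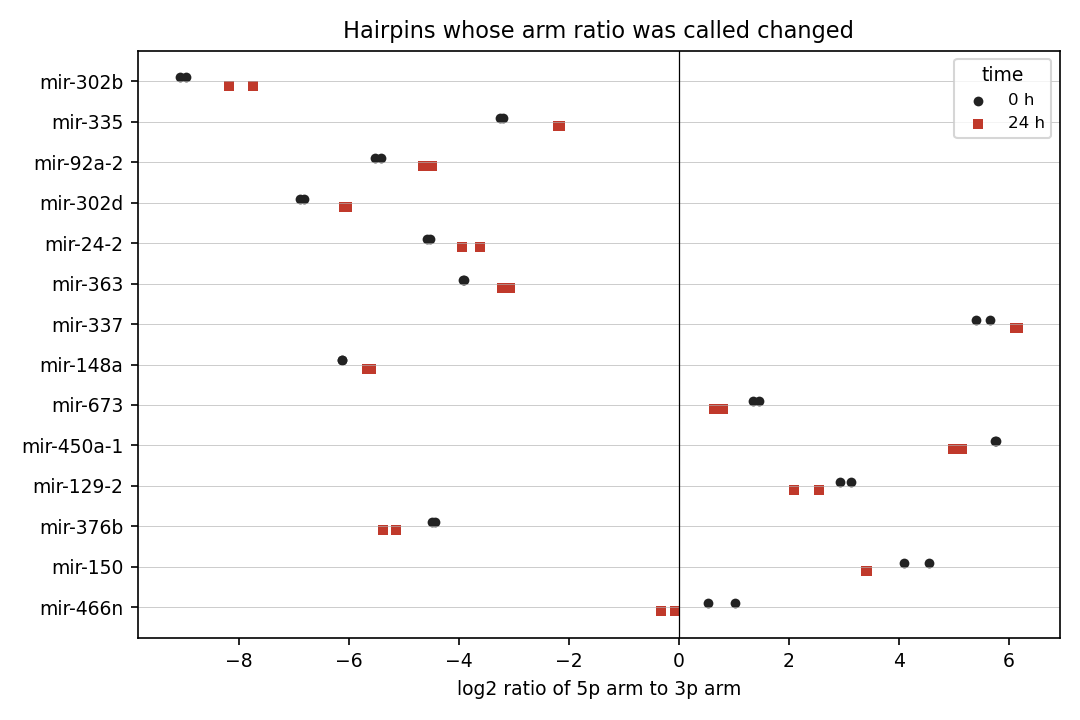
Log2 ratio of the 5p to the 3p arm in each library at 0 h (black circles) and 24 h (red squares) for the 14 hairpins whose ratio was called changed. Points left of 0 are hairpins with more 3p than 5p signal. The mir-302b points move from −9.07 and −8.95 to −8.17 and −7.73, and no hairpin except mir-466n crosses 0.

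The 12 h and 48 h libraries place the 24 h changes in the course. The fits share the 0 h and 24 h libraries, so the counts that follow are descriptions without a test. Of the 167 arms lower at 24 h, 128 were already below both 0 h libraries in both 12 h libraries, and 6 were above them. Of the 211 arms higher at 24 h, 93 were already above at 12 h and 61 were below. Beyond 24 h, 136 of the 211 higher arms rose further by 48 h in both libraries and 45 went back. Of the 167 lower arms, 97 fell further and 32 went back. Among all 1268 members, both 48 h libraries were above both 24 h libraries in 397 and below in 396. A count over all members was not made for 12 h, so the 12 h counts have no share to be read against.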

How the data were processed

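Small RNA was prepared with Trizol and a TruSeq small RNA kit, per the labels' protocols. The deposited table holds a signal per hairpin arm, in which the authors scaled each library to a fixed sum. Each library had a lower and a higher step for 1 read, for example 0.0179 and 0.0182 units in 0 h replicate 1. Every low value tested, up to 20 reads, was a sum of whole numbers of these steps (within 0.001 reads). The worth of 1 read is the mean of the steps, and read numbers per row were recovered by dividing by it and rounding, so high ones are approximate. Library totals of reads assumed equal signal on the lower and the higher step, so they are approximate too. Many rows of identical copies hold the same reads, so sums and shares over rows count these reads in each. This does not hold for every pair of arms with the same mature sequence, and how such reads were assigned is not stated. The submitters' processing notes name STAR 2.5.0, Cufflinks 2.2.1 and mm10 without a role, and the sources used here do not say how small RNA reads were trimmed and aligned.

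The test was limma 3.58.1 in R 4.3.3 on log2(signal + 0.1), with 4 group means over 8 libraries, an intensity trend and Benjamini-Hochberg adjusted p over 1268 arms. All log2 differences are on this log2(signal + 0.1) scale, which understates changes of low arms. Sums per seed and log2 ratios of arms were fitted in the same way. The fit was tested on simulated data. Alternatives were other pseudocounts, scalings, filters, libraries left out, a replicate block, edgeR 4.0.16 and DESeq2 1.42.0 on recovered reads. Arms were named by a rule: the 10 largest called rises and falls with a mean of at least 1, the 12 most abundant arms, members of fixed lists, the 5 seeds with the largest called rise and fall, and 3 hairpins each way by arm ratio. miR-133a-1-3p and miR-499-5p were named after their values were seen. The members and lists were chosen with earlier results of these data known. Figures were drawn with matplotlib 3.10.9.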

Additional observations from a re-analysis of the deposited data

How the results depend on the processing

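Over the alternatives tried, no named arm or seed changed its direction past the threshold. The balance between higher and lower calls did turn with TMM scaling and with edgeR, as given above. The counts of 211 higher and 167 lower arms became 134 and 99 with only the 4 libraries at 0 h and 24 h, where fewer libraries estimate the spread. Leaving out 1 library gave 148 to 198 higher and 107 to 163 lower arms, 55 to 66 higher and 56 to 99 lower seeds, and 7 to 25 changed arm ratios. The lowest counts of lower arms and lower seeds, 107 and 56, were those without 0 h replicate 2, and the cause was not tested. The 14 changed arm ratios became 7 with a mean of at least 5 in both arms, 3 with only the 4 libraries and 8 with a replicate block. With the replicate block, 222 arms were higher and 169 lower. The labels do not say whether replicate numbers pair the libraries. The correlations of same-numbered deviations ran from −0.33 (24 h and 48 h) to 0.28 (0 h and 48 h). With 2 libraries a group they cannot decide whether a culture or day was shared. Testing rows that hold the same 8 values once, an alternative chosen after seeing the data, gave 163 higher and 162 lower arms. Rows that differ slightly but share most reads were still tested apart. DESeq2 gave no adjusted p for 320 arms. With 2 libraries a group, arms below 1 unit were called least often, and a change there may not have been detectable at this depth.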
